A study of Mus musculus with 29 samples.

Results

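The replication-dependent histone genes of the mouse, 66 of the 30025 genes in the expression table, are described here in blood-forming stem and progenitor cells of WT and 5A3+/del mice. They were chosen by gene symbol, as those that begin with Hist1h, Hist2h, Hist3h or Hist4h. By class they comprised 6 H1, 17 H2A, 19 H2B, 11 H3 and 13 H4 genes, and by cluster 55 Hist1, 7 Hist2, 3 Hist3 genes and 1 Hist4 gene. RNA-Seq libraries came from 10 mice, 5 WT mice and 5 mice heterozygous for a germ-line deletion on chromosome 5 that runs between loxP sites placed at Fbxl13 and Srpk2. All mice were on the C57BL/6J strain, the deletion having been backcrossed onto it from an embryonic stem cell clone, and they were 12.42 to 13.85 weeks old and untreated. From each mouse c-kit+ Lin− Sca-1+ CD41− CD48− bone marrow cells were sorted by CD150 into CD150hi hematopoietic stem cells (HSC), CD150lo HSC and CD150neg multipotent progenitors (MPP). This gave 29 libraries, 5 per genotype and population with the exception of 4 for 5A3+/del CD150neg MPP. The sample labels call the CD150neg cells HSC, whereas the sorting protocol calls them MPP, and the name MPP is used here.

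Histones are the proteins around which DNA is wound. H2A, H2B, H3 and H4 form the core of the nucleosome, and the linker histone H1 binds where DNA enters and leaves it. The replication-dependent genes lie in clusters, have no introns as a rule, and are transcribed mainly during S phase, when new DNA is packaged. Their mRNAs end in a conserved stem-loop in place of a poly(A) tail. The stem-loop is bound by SLBP and cut by a machinery that includes the U7 snRNP, whereas variant histones are made from ordinary polyadenylated mRNA throughout the cell cycle. Stem cells divide rarely compared with multipotent progenitors, and histone mRNA is widely used as a sign of DNA synthesis.

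The level of each gene is given in FPKM, fragments scaled to exon length and to library depth, which allows comparison between genes. Library depth ran from 21229591 to 38797534 fragments, with a median of 26967058. Total RNA was amplified, and histone mRNA with and without a poly(A) tail cannot be told apart in these values. The libraries carried their labels at the checks made. Slamf1, which encodes CD150, ranged from 9.97 to 22.6 FPKM in the 10 CD150hi libraries, from 0.179 to 2.64 FPKM in the CD150lo libraries and no higher than 0.296 FPKM in the CD150neg libraries. Mll5, a chromatin regulator within the deleted interval, fell by 0.88, 0.70 and 0.98 on the log2 scale in 5A3+/del CD150hi, CD150lo and CD150neg cells (limma adjusted p = 0.000548, 0.00693 and 0.000234). Orc5, a subunit of the origin recognition complex within the same interval, fell by 0.95, 1.17 and 0.98 (limma adjusted p = 0.00941, 0.00147 and 0.0157). None of the replication-dependent histone genes chosen here lies on chromosome 5.

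The histone genes lie on chromosomes 13 (Hist1), 3 (Hist2), 11 (Hist3) and 6 (Hist4) of the mm9 build. The map of the Hist1 cluster draws 54 of its 55 genes, 30 in a right-hand group and 24 in a left-hand group. The remaining gene, Hist1h2al, bears a cluster name but is annotated apart from it, starting at chromosome 13 position 51298057. H2A and H2B genes are often arranged head to head. Of the 66 genes, 24 formed 12 divergent pairs with less than 500 bases between their starts, and all 12 pairs joined an H2A gene to an H2B gene. The shortest distance was 167 bases, in the pairs Hist1h2ap with Hist1h2br and Hist1h2bq with Hist1h2ao.

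**Figure D1:**
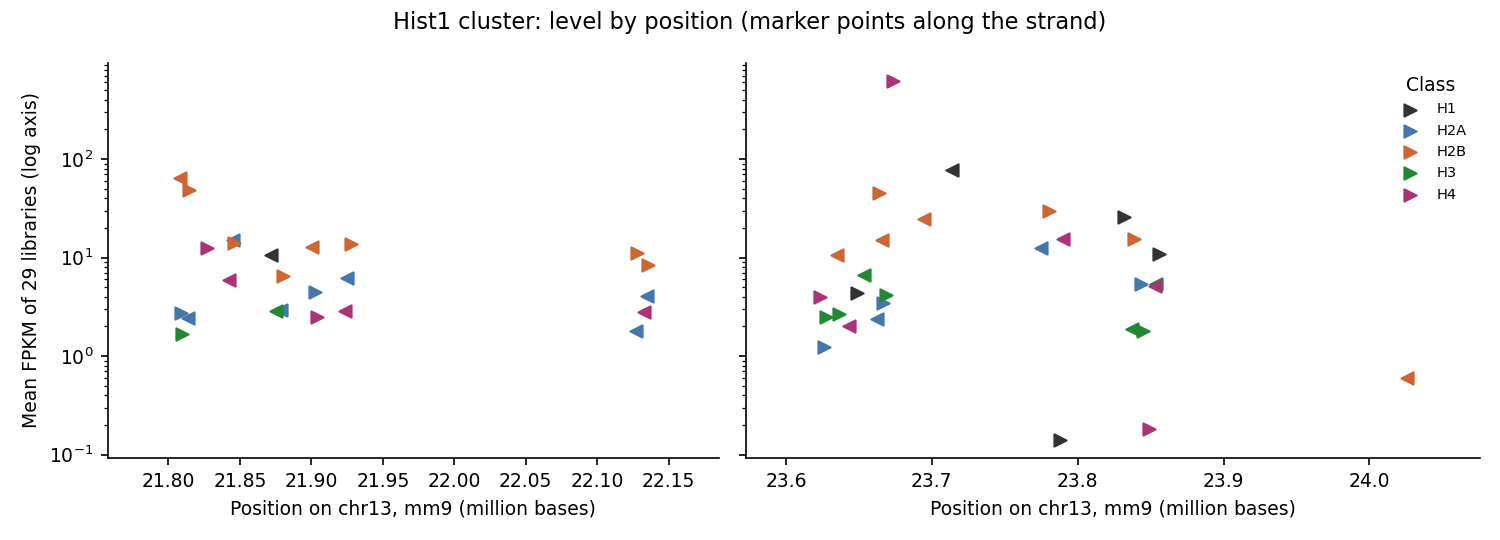
Position of 54 Hist1 genes on mouse chromosome 13 (mm9), with the strand of each gene shown by the direction of its marker and its class by color, and the mean FPKM over 29 libraries on a logarithmic axis. Hist1h4d, an H4 gene, stands highest at 621 FPKM, and the genes fall into groups of 24 and 30.

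A histone stem-loop was searched for in the sense strand within 150 bases after the stop codon, as a 6-base stem that begins with GG, a 4-base loop that begins with TT and the reverse complement of the stem. It was found in 54 of the 63 histone genes with an annotated coding part and in 64 of 20791 coding genes overall (0.308%). The genes without a match were Hist1h2al, Hist1h2an, Hist1h2bp, Hist1h2bq, Hist1h2br, Hist1h3g, Hist1h4a, Hist2h2bb and Hist2h2be, which says only that these letters are not in that window. Hist1h2aj, Hist2h3c2 and Hist3h2bb-ps have no coding part in the annotation used. The authors' table lists Hist1h2aj and Hist3h2bb-ps as pseudogenes but Hist2h3c2 as protein coding, so that its type is uncertain. Sequences are printed below the coordinates, with the stem in capitals and the loop in lower case between its arms. Lower-case bases on either side of the stem are flanking sequence that the coordinates leave out. The stem-loops shown are those of the genes on which the expression results turn. All are in the 3′ untranslated part or just past the annotated end. They lie at chr13:23673819-23673834 (plus strand) for Hist1h4d, chr3:96066862-96066877 (minus) for Hist2h4, chr6:136752519-136752534 (minus) for Hist4h4, chr13:21845251-21845266 (minus) for Hist1h2ak, chr13:21814375-21814390 (plus) for Hist1h2bm and chr13:23831381-23831396 (plus) for Hist1h1c.
Hist1h4d: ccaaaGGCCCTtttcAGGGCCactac
Hist2h4: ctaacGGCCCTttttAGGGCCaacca
Hist4h4: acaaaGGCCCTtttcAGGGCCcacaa
Hist1h2ak: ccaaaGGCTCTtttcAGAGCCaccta
Hist1h2bm: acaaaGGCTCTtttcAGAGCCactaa
Hist1h1c: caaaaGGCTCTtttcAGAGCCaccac

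The H4 genes shown share a stem that differs from that of the H2A, H2B and H1 genes shown. Of the 54 genes with a stem-loop, 13 have an annotated end that lies before the end of the loop, among them Hist1h2ak. Another 11 are annotated more than 200 bases past the loop, by 839 bases in Hist1h1c, 1235 in Hist2h4, 2010 in Hist1h2ac, 3050 in Hist1h1d and, at most, 7826 in Hist1h2bc. These are distances on the genome. Hist1h2bc has 736 exon bases in 2 blocks, so most of its distance is not exon sequence. Transcripts that end at the loop and transcripts that run on to a later end are summed in 1 value per gene and were not separated.

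Many members are near copies of each other, and how the authors' counting treated fragments that match several places is not stated. Among 100-base windows of exon sequence, 9 members shared none with another member, whereas 20 shared at least 50% of theirs. Hist1h2ao and Hist1h2ap shared 100% of their windows, as did Hist1h2bq and Hist1h2br, and their separate values are uncertain. The shared portion was 0% in Hist1h4d, 5.1% in Hist1h1c, 6.6% in Hist1h2bm, 7.5% in Hist1h2ak and 62.1% in Hist1h2bl. Some members overlap other annotated genes, so that their fragments cannot be assigned with certainty. On the same strand, Hist3h2a shares 708 exon bases with Trim17, Hist2h3c1 562 with Hist2h2aa1, Hist1h2be 163 with Gm11398 and Hist1h2ac 108 with a 5S_rRNA gene. On the opposite strand, Hist2h2ab shares 393 bases with Gm15444, Hist1h4b 299 with 4930558J22Rik, and Hist1h2bm 20 with Hist1h2aj.

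Of the 66 genes, 62 passed the filter on low values, which asked for 4 or more of the 29 libraries with an FPKM of 1 or higher, and were tested along with 15409 genes in all. Hist1h4b, Hist1h1t, Hist2h2ab and Hist2h2bb did not. Averaged over the libraries, 6 histone genes had an FPKM under 1, 26 had 1 to 5, 25 had 5 to 20 and 9 had 20 or more. The median of this mean was 5.39 FPKM for the 62 histone genes and 5.92 FPKM for all genes tested. A single H4 gene dominated. Hist1h4d (ENSMUSG00000061482, chr13:23673467-23673859) had a mean of 621 FPKM, the rank of 46 among all genes tested, and made up 41.0% to 59.4% of the summed histone level in each library. The 5 most abundant genes, Hist1h4d, Hist1h1e, Hist1h2bl, Hist1h2bm and Hist1h2bg, made up 66.7% of the summed mean and the 10 most abundant 75.8%.

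Summed over the 66 genes, the histone level differed more between libraries of the same group than between groups. In replicates 1 to 5 of WT CD150hi HSC the sum was 1806, 1419, 803, 959 and 1625 FPKM, and in WT CD150lo HSC 2245, 1125, 964, 882 and 833 FPKM. WT CD150neg MPP had 1192, 1555, 1152, 1126 and 1175 FPKM. Thus 3 of the WT CD150hi libraries and 1 of the WT CD150lo libraries stood high, and the WT CD150neg libraries lay close together except for replicate 2. In 5A3+/del mice the sum was 1886, 1505, 1001, 955 and 1214 FPKM in CD150hi HSC, 1193, 1334, 1074, 1295 and 991 FPKM in CD150lo HSC, and 1710, 1955, 1218 and 994 FPKM in CD150neg MPP. The ranges of the groups overlapped in every comparison of genotype or population. The group means were 1322 ± 429 (SD, n = 5), 1210 ± 589 (n = 5) and 1240 ± 178 (n = 5) in WT CD150hi, CD150lo and CD150neg cells, and 1312 ± 388 (n = 5), 1177 ± 145 (n = 5) and 1469 ± 441 (n = 4) in the same 5A3+/del populations. In 5A3+/del cells the mean sum was thus 99.2%, 97.3% and 118% of that in WT in CD150hi, CD150lo and CD150neg cells, and each difference was smaller than the SD between 5A3+/del replicates. In CD150neg cells it was larger than the SD between WT replicates. In CD150lo cells the direction rests on WT replicate 1, at 2245 FPKM, since the other WT libraries there lay between 833 and 1125 FPKM. By the group median the direction turned, with 964 FPKM in WT and 1193 FPKM in 5A3+/del CD150lo cells. Since these are bulk samples scaled to total mapped fragments, fewer cells in S phase and less histone mRNA per cell cannot be told apart.

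**Figure D2:**
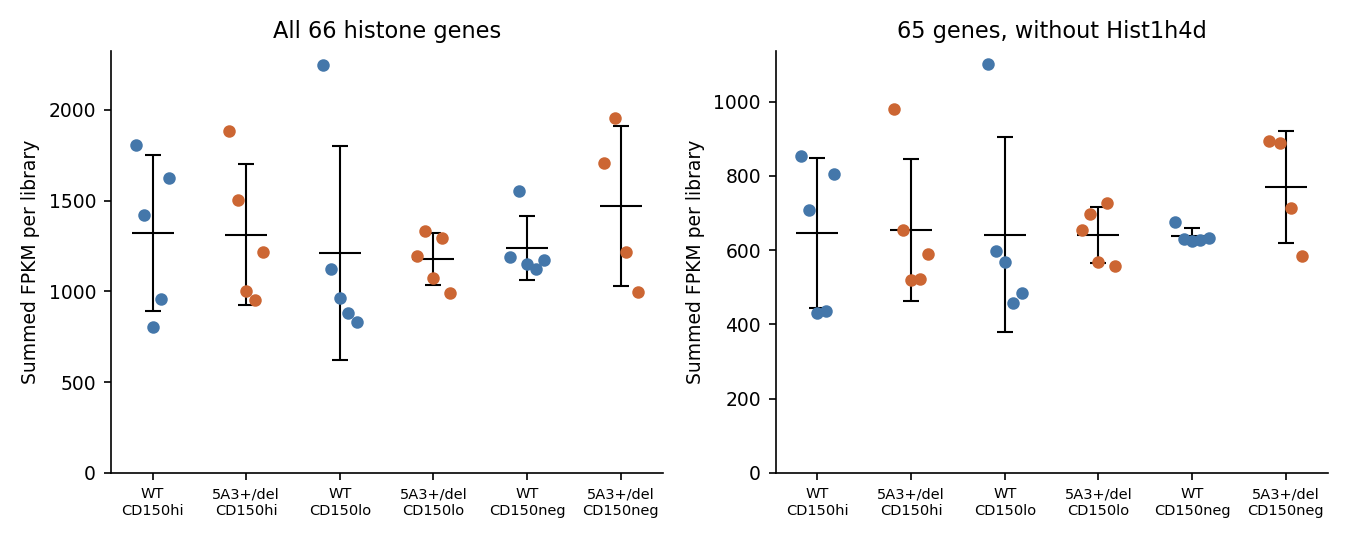
Summed FPKM of histone genes in each of the 29 libraries by genotype and population, with WT in blue, 5A3+/del in orange, and black bars for the mean ± SD (n = 5, or 4 for 5A3+/del CD150neg MPP). WT CD150lo replicate 1 stands highest at 2245 FPKM, and the groups overlap.

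Libraries with a high histone sum differed from the others in further ways. In all 6 groups the library with the highest sum was among the 2 with the fewest genes above 0, and in 4 of 6 the library with the lowest sum had the most genes above 0. For WT CD150hi HSC these libraries held 18551 and 20488 genes above 0, and for 5A3+/del CD150hi HSC 17346 and 20207. The sum over 31 DNA replication genes was highest in the same library as the histone sum in 1 of 6 groups. In WT CD150lo replicate 1, the library with the most histone, the replication genes summed to 343 FPKM, the lowest value of its group. Over all tested histone genes the median SD within groups was 0.502 on the log2 scale, against 0.327 for all genes tested and 0.323 for the 6752 genes in the same middle range of level, 2.8 to 12.9 FPKM. Hist4h4 varied most (SD 1.04), followed by Hist2h2be (0.73), and Hist1h3f least (0.29).

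Markers of granulocytes and monocytes moved with the histone sum in some groups and not in others. The 8 genes of that list summed to 800, 338, 67.6, 156 and 325 FPKM in WT CD150hi replicates 1 to 5 and to 1297, 156, 62.9, 287 and 199 FPKM in WT CD150lo. In WT CD150neg MPP they summed to 112, 37.9, 90.4, 109 and 88.9 FPKM. The WT libraries highest in this list within CD150hi and CD150lo cells were also those highest in histone sum. For 5A3+/del cells the list summed to 50.1, 154, 50.8, 34.5 and 46.6 FPKM in CD150hi HSC, to 51.9, 149, 358, 184 and 163 FPKM in CD150lo HSC, and to 41.6, 118, 266 and 125 FPKM in CD150neg MPP. In WT CD150neg MPP and in each 5A3+/del group the library highest in histone sum was not the highest in this list. In WT CD150neg MPP that library, replicate 2, had the lowest marker sum of its group. In 5A3+/del CD150hi HSC it was replicate 1, which had a low marker sum. Replicate 3 had the highest marker sum in 5A3+/del CD150lo and CD150neg cells and the second-lowest histone sum in each. S100a8, an alarmin of neutrophils, was at 478, 146, 16.8, 54.9 and 152 FPKM in WT CD150hi HSC. In 5A3+/del CD150hi HSC it was at 0, 62.5, 7.22, 8.17 and 11.3 FPKM. The list was not uniform, and Prtn3, the gene of the protease proteinase 3, was at 25.7, 32.2, 22.4, 34.2 and 37.3 FPKM in WT CD150hi HSC and at 28.1, 36.8, 37.6, 20.4 and 31.5 FPKM in 5A3+/del. Ctsg, which encodes the granule protease cathepsin G, was at 0 in the 5 5A3+/del CD150hi libraries and in WT CD150hi replicates 2, 3 and 4. The 8 erythroid genes summed to between 16.3 and 105 FPKM per library, the 4 megakaryocyte genes to between 13.1 and 43.1, the 5 B cell genes to between 6.2 and 32.2 and the 4 T cell genes to no more than 1.6 FPKM. The part of these markers in the histone values was not tested.

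By class, H4 made up 50.8% to 58.0% of the summed histone level in the 6 groups, H2B 20.7% to 29.4%, H1 9.01% to 10.9%, H2A 5.32% to 7.62% and H3 2.68% to 3.24%. Hist1 held 94.2% to 96.0% and Hist2 2.91% to 4.42%. Levels summed per kilobase do not count molecules of protein, and they rest on the annotated lengths. Without Hist1h4d the remaining H4 genes summed to 91.0 ± 30.4 FPKM (SD, n = 5) in WT CD150hi HSC and 73.1 ± 37.8 FPKM (n = 5) in 5A3+/del CD150hi HSC. The H2B genes summed to 401, 265, 199, 182 and 321 FPKM in WT CD150hi replicates 1 to 5 and 512, 356, 261, 276 and 311 FPKM in 5A3+/del, and the H2A genes to 143, 96.3, 70.8, 69.0 and 106 FPKM and 94.4, 54.7, 62.3, 64.7 and 72.9 FPKM. The genotypes overlapped in both classes, with H2B means of 274 ± 90.2 and 343 ± 101 FPKM and H2A means of 97.0 ± 30.2 and 69.8 ± 15.2 FPKM (n = 5 each).

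The effect of the deletion was first asked in CD150hi HSC, where a single histone gene differed. Hist1h2ak (ENSMUSG00000063021, chr13:21845264-21845776, minus strand) encodes an H2A protein and is paired head to head with the H2B gene Hist1h2bn, 215 bases away. It had 17.3, 32.1, 17.4, 17.6 and 26.8 FPKM in WT replicates 1 to 5 and 7.91, 8.22, 12.3, 10.8 and 9.91 FPKM in 5A3+/del. All 5 5A3+/del libraries lay below all 5 WT libraries. The means were 22.3 ± 6.86 and 9.82 ± 1.82 FPKM (SD, n = 5 each), and Hist1h2ak fell by 1.06 on the log2 scale (SE 0.22, limma adjusted p = 0.0412). Thus 1 of 62 histone genes passed at an adjusted p of 0.05, where 0.156% of all genes tested did, and 9 of 62 had an unadjusted p under 0.05, where 13.1% of all genes did. With voom on recovered fragments 0 passed, 7 had an unadjusted p under 0.05, and Hist1h2ak had an adjusted p of 0.0713. Over 20 alternatives the log2 difference stayed between -1.15 and -0.93, whereas the adjusted p ran from 0.0164 to 0.312 and was under 0.05 in 7. Leaving out WT mouse 2, 4 or 5 raised it to 0.125, 0.0541 and 0.0738, and leaving out 5A3+/del mouse 1, 2, 3, 4 or 5 raised it to 0.065, 0.109, 0.0702, 0.0738 and 0.0815. In the same comparison the granulocyte and monocyte list, given above, had a median log2 difference of -1.07, with 2 of its 8 genes higher in 5A3+/del, 3 at an unadjusted p under 0.05 and 0 called by limma (0 with voom), and its part in the Hist1h2ak value was not tested.

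The next genes by unadjusted p in CD150hi HSC did not pass after adjustment. Hist1h2bm (ENSMUSG00000058189, chr13:21813913-21814436, plus strand), an H2B gene, had 29.3, 16.1, 21.7, 18.7 and 53.1 FPKM in WT and 96.1, 63.2, 33.9, 51.7 and 60.0 FPKM in 5A3+/del. Only WT replicate 5 reached the 5A3+/del range. The log2 difference was 1.18 (SE 0.30, limma adjusted p = 0.0894). Hist2h3c2, annotated without a coding part and sharing 62.2% of its windows with the H3 gene Hist2h3c1, had 2.23, 1.31, 1.20, 1.62 and 3.26 FPKM in WT and 3.57, 5.75, 3.73, 7.01 and 6.37 FPKM in 5A3+/del. Its groups did not overlap, at a log2 difference of 1.12 (SE 0.31, limma adjusted p = 0.106). Hist1h4d overlapped between the genotypes, with 951, 710, 372, 524 and 820 FPKM in WT and 906, 850, 481, 432 and 626 FPKM in 5A3+/del.

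The median log2 difference over the 62 histone genes in CD150hi HSC was -0.03, beside 0.004 for all genes tested, and 43.5% of histone genes and 50.7% of all genes had a higher mean in 5A3+/del. By class, without a test of one class against another, the median was -0.24 over 16 H2A genes, of which 2 had a higher mean in 5A3+/del, and -0.41 over 11 H3 genes, of which 2 did. It was 0.28 over 18 H2B genes, of which 14 were higher, 0.36 over 5 H1 genes and -0.003 over 12 H4 genes. These are descriptions of single genes that share libraries and, within a class, sequence.

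In CD150lo HSC limma called 0 of 62 histone genes between genotypes, where 0.0324% of all genes passed. An unadjusted p under 0.05 was found for 7 of 62, where 6.87% of all genes had one, and voom called 0, with 5 unadjusted. Hist1h2ak again had the smallest p. Its levels were 26.8, 24.1, 21.8, 14.1 and 12.7 FPKM in WT and 5.08, 11.7, 10.8, 9.73 and 11.5 FPKM in 5A3+/del. These groups did not overlap either, although WT replicates 4 and 5 lay near the 5A3+/del libraries. The log2 difference was -0.95 (SE 0.22, limma adjusted p = 0.116), and without WT mouse 5 it passed, as the only histone gene. Hist1h2bm followed with 57.1, 24.4, 30.2, 24.6 and 26.9 FPKM in WT and 52.2, 74.5, 40.4, 85.0 and 43.3 FPKM in 5A3+/del. WT replicate 1 alone lay within the 5A3+/del range, and the log2 difference was 0.87 (limma adjusted p = 0.424). Hist1h2an, an H2A gene with 83.3% of its windows shared, had means of 3.69 ± 0.675 FPKM in WT and 2.31 ± 0.925 FPKM in 5A3+/del (n = 5 each, limma adjusted p = 0.618). The median over the histone genes was -0.03, beside 0.01 for all genes, with -0.33 over H2A and 0.19 over H2B genes. With WT CD150lo replicate 1 and 5A3+/del CD150hi replicate 1 left out, a choice made after seeing the summed levels, the histone median was 0.12.

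In CD150neg MPP most histone genes had a slightly higher mean in 5A3+/del than in WT. Here 55 of 62 histone genes (88.7%) had a higher mean in 5A3+/del, beside 49.8% of all genes tested, and the median log2 difference was 0.24, beside -0.001. This median is smaller than the SD of the library median between replicates, 0.316. That SD is the spread of single libraries and not the error of a difference between group means, which was not estimated. The 12 H4 genes tested all had a higher mean in 5A3+/del (median 0.25), as did 17 of 18 H2B genes (0.24), 13 of 16 H2A genes (0.20), 9 of 11 H3 genes (0.23) and 4 of 5 H1 genes (0.25). No single gene stood out. limma called 0 of 62, where 0.0454% of all genes passed, and 1 of 62 had an unadjusted p under 0.05, where 4.27% of all genes did, and voom gave 0 and 1. That gene was the H2B gene Hist1h2bf, with 12.6, 7.30, 14.2, 20.7 and 16.1 FPKM in WT and 36.8, 33.0, 17.2 and 13.8 FPKM in 5A3+/del. Replicates 1 and 2 of 5A3+/del lay above all WT libraries, and replicates 3 and 4 within their range. The log2 difference was 0.75 (SE 0.32, limma adjusted p = 1.0). Hist1h2bb, another H2B gene, had 19.99, 27.3, 13.3, 10.5 and 10.8 FPKM in WT and 58.0, 25.5, 16.3 and 17.5 FPKM in 5A3+/del. Hist1h4a, an H4 gene, had 3.93, 4.26, 4.92, 2.62 and 3.79 FPKM in WT and 11.9, 6.03, 5.75 and 3.95 FPKM in 5A3+/del. In both genes 5A3+/del replicate 1 was highest. Summed histone levels of 5A3+/del replicates 1 and 2, at 1710 and 1955 FPKM, were above those of all WT CD150neg libraries, and those of replicates 3 and 4, at 1218 and 994 FPKM, were not above all of them. Replicates 1 and 2 also had the fewest genes above 0 of their group, 18443 and 18976 against 21155 and 20693, and the part of this in the histone values was not tested. Hist1h2ak lay at 10.6, 14.1, 12.3, 18.3 and 13.5 FPKM in WT CD150neg MPP and at 16.0, 13.5, 17.96 and 15.7 FPKM in 5A3+/del, with overlapping groups and a log2 difference of 0.21 (limma adjusted p = 1.0).

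**Figure D3:**
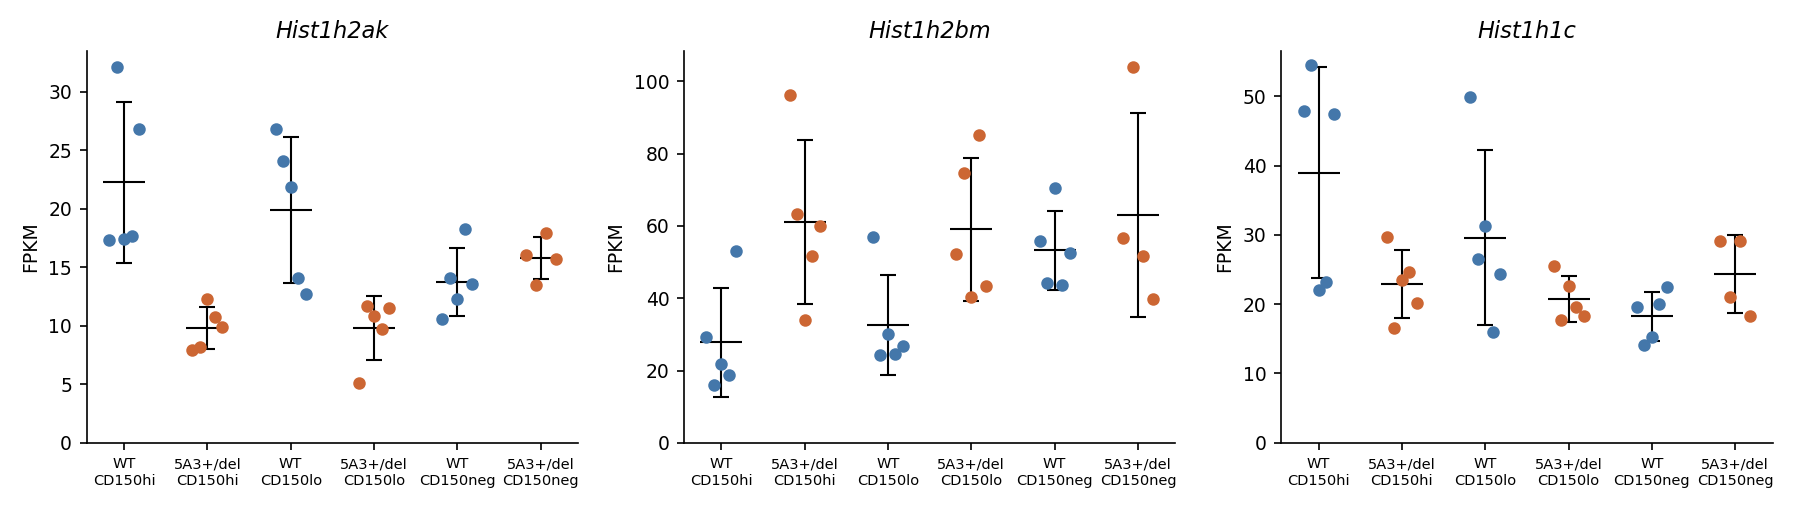
FPKM of Hist1h2ak, Hist1h2bm and Hist1h1c in each library by genotype and population, with WT in blue, 5A3+/del in orange and black bars for the mean ± SD (n = 5, or 4 for 5A3+/del CD150neg MPP). In CD150hi HSC the Hist1h2ak means are 22.3 FPKM in WT and 9.82 FPKM in 5A3+/del, without overlap.

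Whether the difference between genotypes itself differed between populations was tested as an interaction. Between CD150lo and CD150hi HSC limma called 0 of 62 histone genes, where 0.0% of all genes passed, and 2 of 62 had an unadjusted p under 0.05, where 3.98% of all genes did, and voom gave 0 and 1. Between CD150neg MPP and CD150hi HSC limma called 0 of 62, again where 0.0% of all genes passed, with 6 of 62 unadjusted, where 7.96% of all genes were, and voom gave 0 and 6. Hist1h2ak had the smallest p of the latter comparison, at an interaction of 1.27 on the log2 scale (SE 0.32, limma adjusted p = 0.268). That its level differed between genotypes in CD150hi HSC and not in CD150neg MPP is therefore not shown. The median interaction over the 62 genes was -0.06 for CD150lo and 0.28 for CD150neg cells, beside 0.001 and -0.007 for all genes.

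Among WT populations, 3 single histone genes passed between CD150hi HSC and CD150neg MPP, of which Hist1h1c and Hist1h2ak fell and Hist1h2bm rose. Hist1h1c (ENSMUSG00000036181, chr13:23830676-23832235, plus strand) encodes a linker histone. It had 47.8, 54.5, 21.99, 23.2 and 47.4 FPKM in WT CD150hi HSC, 49.9, 26.5, 31.3, 16.0 and 24.3 FPKM in CD150lo HSC and 19.6, 14.0, 15.2, 19.96 and 22.5 FPKM in CD150neg MPP. CD150hi replicates 1, 2 and 5 stood high, and replicates 3 and 4 lay just above or within the range of the CD150neg libraries. From CD150hi to CD150neg cells Hist1h1c fell by 1.02 on the log2 scale (SE 0.25, limma adjusted p = 0.00725), whereas 3 of the 5 H1 genes tested had a higher mean in CD150neg MPP (median 0.02). Over 21 alternatives its adjusted p ran from 0.00297 to 0.0864 and missed 0.05 in the fit without WT mouse 2. In 5A3+/del mice Hist1h1c had 29.7, 16.5, 23.4, 24.6 and 20.2 FPKM in CD150hi HSC and 29.1, 21.0, 29.1 and 18.2 FPKM in CD150neg MPP, which overlapped (log2 difference 0.04, limma adjusted p = 0.971). The interaction was 1.06 (SE 0.36, limma adjusted p = 0.426).

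Hist1h2bm rose from WT CD150hi HSC, at the levels given above, to CD150neg MPP, at 55.7, 44.1, 70.5, 43.7 and 52.4 FPKM. Only CD150hi replicate 5 reached the CD150neg range. The log2 difference was 0.99 (SE 0.30, limma adjusted p = 0.0377), and over 21 alternatives the adjusted p ran from 0.0169 to 0.178, under 0.05 in 15. It exceeded 0.05 without WT mouse 1, 2, 3 or 4, at 0.0651, 0.123, 0.178 and 0.113, without a filter on low values, at 0.0771, and with the groups of the contrast alone, at 0.0696. Hist1h2ak fell by 0.67 in the same comparison (SE 0.22, limma adjusted p = 0.0497), with CD150neg replicate 4 within the CD150hi range and the other CD150neg libraries below it. Its adjusted p ran from 0.0293 to 0.211 over 21 alternatives and was under 0.05 in 6 of them. It was 0.124, 0.211, 0.0676 and 0.151 without WT mouse 1, 2, 3 or 5, and 0.0604, 0.0663, 0.0701 and 0.0617 without 5A3+/del mouse 2, 3, 4 or 5, which enter the fit through the shared estimate of spread. With the mouse as a fixed block, which pairs the populations of each animal, the adjusted p was 0.0589 for Hist1h2ak, 0.0207 for Hist1h2bm and 0.00519 for Hist1h1c. Thus 3 of 62 histone genes passed with limma, where 10.0% of all genes tested did. An unadjusted p under 0.05 was found for 9 of 62, where 21.8% of all genes had one. Voom called 2 of 62, where 1559 of 15139 genes passed, with 6 unadjusted. Both limma shares lay below those of all genes tested. The limma count was 0 without WT mouse 2, 1 without WT mouse 3 and 5 with the pair of libraries named above left out. Hist2h4, an H4 gene, came next, with 40.8, 48.3, 19.5, 28.3 and 38.5 FPKM in CD150hi HSC and 18.04, 20.6, 19.9, 13.0 and 8.03 FPKM in CD150neg MPP. CD150hi replicate 3 lay within the CD150neg range, and the log2 difference was -1.16 (SE 0.42, limma adjusted p = 0.0849).

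Within WT CD150hi HSC, the replicates high in Hist1h1c, 1, 2 and 5, were those with the highest sums of granulocyte and monocyte markers. Of the 8 genes of that list 1 passed in the comparison with CD150neg MPP, where 10.0% of all genes did. It was Ltf, the gene of the granule protein lactoferrin, which fell by 1.39 on the log2 scale (limma adjusted p = 0.0327). With voom 0 of the 8 passed and 3 had an unadjusted p under 0.05, and 2 of the 8 had a higher mean log2 level in CD150neg MPP. Ltf was at 5.55, 3.70, 0.938, 2.01 and 2.05 FPKM in WT CD150hi HSC and at 0.481, 0, 0.704, 0.467 and 0.189 FPKM in CD150neg MPP. The lowest CD150hi library lay above the highest CD150neg library. The part of these markers in the fall of Hist1h1c and Hist1h2ak was not tested.

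Neighboring WT populations gave no call. From CD150hi to CD150lo HSC limma called 0 of 62 histone genes, where 3.53% of all genes passed, with 4 of 62 unadjusted, where 14.1% of all genes were, and voom gave 0 and 2. From CD150lo HSC to CD150neg MPP limma called 0 of 62, where 0.188% of all genes passed, with 5 of 62 unadjusted, where 8.75% of all genes were, and voom gave 0 and 2. The histone medians were 0.02 and -0.04 in these comparisons and -0.03 from CD150hi to CD150neg cells, beside 0.003, 0.007 and 0.007 for all genes. From CD150hi to CD150neg cells the median was 0.35 over 18 H2B genes, of which 14 had a higher mean in CD150neg MPP, and -0.21 over 11 H3 genes, of which 2 did.

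In 5A3+/del mice, likewise, limma called no histone gene between populations. From CD150hi to CD150lo HSC it called 0 of 62, where 3.18% of all genes passed, with 0 of 62 unadjusted, where 13.3% of all genes were, and voom gave 0 and 0. From CD150lo HSC to CD150neg MPP it called 0 of 62, where 0.0389% of all genes passed, with 2 of 62 unadjusted, where 4.95% of all genes were, and voom gave 0 and 2. From CD150hi HSC to CD150neg MPP it called 0 of 62, where 6.16% of all genes passed, with 5 of 62 unadjusted, where 16.9% of all genes were, and voom gave 0 and 3. The medians were -0.03, 0.23 and 0.24, beside 0.005, -0.005 and 0.004 for all genes. All 16 H2A genes and all 12 H4 genes tested had a higher mean in 5A3+/del CD150neg MPP than in 5A3+/del CD150hi HSC, as did 51 of 62 histone genes (82.3%) and 50.5% of all genes. So did 14 of 17 mitotic genes (median 0.40), 24 of 30 replication genes (0.15) and all 8 granulocyte and monocyte markers (0.75). Of these markers 2 had an unadjusted p under 0.05, and limma called 0 and voom 1, where voom called 954 of 15139 genes. From CD150lo HSC to CD150neg MPP 50 of 62 histone genes had a higher mean. There 11 of 17 mitotic genes (0.06), 6 of 30 replication genes (-0.06) and 2 of 8 markers (-0.24) did. From CD150hi to CD150lo HSC all 8 markers had a higher mean (1.17), beside the histone median of -0.03. The part of these markers in the histone values was not tested. Hist1h2bb had 20.8, 10.3, 10.4, 8.83 and 7.56 FPKM in 5A3+/del CD150hi HSC, against the 58.0, 25.5, 16.3 and 17.5 FPKM in CD150neg MPP given above. CD150hi replicate 1 lay among the CD150neg values and the other 4 below them. The log2 difference was 1.14 (SE 0.37, limma adjusted p = 0.0733), and Hist1h2bb was the 1 histone gene called without WT mouse 1 or without the pair of libraries named above. These comparisons use the 5A3+/del CD150neg libraries of the genotype comparison, so that the higher means in both are not independent.

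Other members among the most abundant of their class passed in no comparison. Hist1h1e, a linker histone gene, had group means from 68.5 to 84.3 FPKM, and Hist1h2bl, an H2B gene, from 57.5 to 68.9 FPKM. Hist1h2ac, an H2A gene, had means from 11.1 to 13.6 FPKM, and the H3 genes Hist1h3e and Hist1h3a from 5.53 to 8.35 and from 3.81 to 7.84 FPKM. Hist1h4d had means from 537 to 699 FPKM, with the widest spread in WT CD150lo HSC, at 1144, 525, 395, 424 and 350 FPKM. Replicate 1 stood apart there, as it did in the summed level.

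The Hist3 and Hist4 genes spanned low and middle levels. Of Hist3, Hist3h2a, an H2A gene whose exons overlap Trim17, had group means from 6.89 to 10.4 FPKM and Hist3h2ba, an H2B gene, from 1.88 to 4.17 FPKM. The pseudogene Hist3h2bb-ps did not exceed 4.41 FPKM and was at 0 in 4 libraries. Hist4h4 (ENSMUSG00000068851, chr6:136752589-136752900, minus strand), the only Hist4 gene and an H4 gene, had 30.4, 2.48, 4.85, 3.65 and 0.475 FPKM in WT CD150lo HSC. In 5A3+/del CD150hi HSC it had 18.3, 2.63, 2.06, 2.80 and 1.99 FPKM. A single library, replicate 1, was far above the rest in each of these groups, and it was also the library with the highest histone sum of its group. Genes known from the testis served as a comparison near 0. Hist1h1t, the testis linker histone gene, did not exceed 1.03 FPKM, and Hist1h2ba, a testis H2B gene, did not exceed 1.78 FPKM in any library. Hist1h2aa is not in the table. The remaining genes that were not tested stayed at or below 1.02 FPKM (Hist1h4b), 0.349 FPKM (Hist2h2ab) and 0.195 FPKM (Hist2h2bb).

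Of 12 genes on the list of replication-independent variant histones 11 were tested, and H2afy, which encodes macroH2A1, a variant associated with silent chromatin, rose from CD150hi to CD150neg cells. Its levels were 26.5, 30.0, 30.6, 27.7 and 26.7 FPKM in WT CD150hi HSC, 62.1, 52.5, 44.1, 66.9 and 60.8 FPKM in CD150lo HSC and 97.6, 87.9, 74.2, 94.3 and 79.8 FPKM in CD150neg MPP. The WT populations did not overlap. The log2 difference was 0.95 from CD150hi to CD150lo cells, 0.60 from CD150lo to CD150neg cells and 1.55 from CD150hi to CD150neg cells (limma adjusted p = 5.26e-06, 0.0323 and 2.9e-10). In 5A3+/del mice it was 1.06 from CD150hi to CD150lo cells and 1.64 from CD150hi to CD150neg cells (limma adjusted p = 9.24e-07 and 5.17e-10). H2afy was the 1 gene of 11 called by limma in each of these 5 comparisons, where 3.53%, 0.188%, 10.0%, 3.18% and 6.16% of all genes tested passed. With voom 3 of the 11 passed from WT CD150hi to CD150neg cells, where 1559 of 15139 genes passed. In each of the other 4 voom called 1, where 596 and 17 of 15139 genes passed in WT and 477 and 954 in 5A3+/del, in the order above. Voom also called 1 from 5A3+/del CD150lo to CD150neg cells, where 2 of 15139 genes passed. There limma called 0 of the 11, with 1 at an unadjusted p under 0.05. The most abundant variants were H3f3b, an H3.3 gene, with group means from 171 to 224 FPKM, and H2afz, the H2A.Z gene, from 78.3 to 105 FPKM, neither of which passed with limma in any comparison. The list as a whole summed to between 408 and 666 FPKM per library.

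Of 14 factors of histone transcription and mRNA 3′ end processing 13 were tested. Limma called 1 of them from WT CD150hi to CD150neg cells, where 10.0% of all genes passed. Voom called 1 there, where 1559 of 15139 genes passed. Hinfp, a transcription factor that binds H4 promoters, rose from 2.28, 2.14, 4.04, 4.19 and 6.85 FPKM in WT CD150hi HSC to 12.1, 8.15, 6.29, 7.42 and 7.31 FPKM in CD150neg MPP. CD150hi replicate 5 alone reached the CD150neg range (log2 difference 0.91, SE 0.18, limma adjusted p = 0.000915). In 5A3+/del mice Hinfp lay at 7.85, 5.78, 6.13, 5.56 and 7.55 FPKM in CD150hi HSC and 6.04, 5.66, 3.88 and 5.42 FPKM in CD150neg MPP. These groups overlapped, and the interaction was -1.22 (SE 0.26, limma adjusted p = 0.185). Slbp, the stem-loop binding protein, had group means from 8.74 to 12.3 FPKM, and Npat, the coactivator of histone gene transcription, from 10.5 to 12.9 FPKM. Zfp473, a zinc finger protein of the U7 machinery, was not tested, with group means from 0.187 to 0.371 FPKM.

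Among histone chaperones, replication genes and mitotic genes limma called 1 of each list. Of 18 chaperones 1 passed, Asf1a, which hands H3 and H4 to the deposition factors, at log2 differences of 0.57 from WT CD150hi to CD150lo HSC and 0.47 from CD150hi to CD150neg cells (limma adjusted p = 0.00834 and 0.0181). Of 30 replication genes tested out of 31, 1 passed, Rfc2, a subunit of the clamp loader, at 0.64 from 5A3+/del CD150hi to CD150lo HSC and 0.73 to CD150neg MPP (limma adjusted p = 0.0273 and 0.00877). Of 17 mitotic genes 1 passed, Cdc20, an activator of the anaphase-promoting complex, at 0.87 from WT CD150hi to CD150neg cells (limma adjusted p = 0.0439). Of all genes tested 3.53% passed from WT CD150hi to CD150lo cells and 10.0% to CD150neg cells, and 3.18% and 6.16% did in 5A3+/del. From WT CD150hi to CD150neg cells voom called 1 replication gene and limma 0, with 4 and 3 of 30 unadjusted. Of all genes tested with voom, 1559 of 15139 passed there. From WT CD150hi to CD150neg cells the medians were 0.24 over chaperones, 0.17 over replication genes and 0.34 over mitotic genes, beside 0.007 for all genes and -0.03 for histone genes. The replication genes summed to between 261 and 484 FPKM per library, and the mitotic genes to between 45.8 and 254 FPKM.

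Between genotypes limma called 0 genes of these 5 lists in each population. In CD150hi HSC the counts at an unadjusted p under 0.05 were 1 of 11 variants, 3 of 13 factors, 3 of 18 chaperones, 4 of 30 replication genes and 3 of 17 mitotic genes, where 13.1% of all genes had one. In CD150lo HSC they were 1, 1, 0, 2 and 0, where 6.87% of all genes had one, and in CD150neg MPP 2, 1, 0, 1 and 0, where 4.27% did. With voom 0 were called. The medians over replication genes were 0.02, 0.12 and 0.02 in CD150hi, CD150lo and CD150neg cells, and over mitotic genes 0.14, 0.12 and 0.19.

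Markers of stem cells and progenitors changed between populations with the sort. Among 9 stem cell markers, Slamf1, Mecom, Tek and Fgd5 were lower in CD150lo than in CD150hi HSC, and lower in CD150neg MPP than in CD150hi HSC, in each genotype (log2 difference -3.90 to -0.65, limma adjusted p = 1.29e-12 to 0.00605). In these comparisons 2 or 3 of the 9 had a higher mean, and none of those passed. The 3 progenitor markers Flt3, Cd34 and Cd48 were higher in the same comparisons (log2 difference 1.30 to 3.74, limma adjusted p = 1.96e-13 to 0.0315). Of all genes tested 3.53% and 10.0% passed in these comparisons in WT and 3.18% and 6.16% in 5A3+/del. Itga2b, the gene for CD41, was the 1 megakaryocyte gene of 3 tested that passed in any comparison, at -0.78 from 5A3+/del CD150hi to CD150neg cells (limma adjusted p = 0.0485), where 6.16% of all genes passed. Voom called 0 of the 3 there, with 1 unadjusted. Itga2b had 1239, 339, 473, 513 and 453 recovered fragments, not scaled to depth, in 5A3+/del CD150hi HSC in replicate order. In 5A3+/del CD150neg MPP it had 172, 340, 250 and 224. CD150hi replicate 1 stood far above the rest, and CD150neg replicate 2 lay level with CD150hi replicate 2.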

How the data were processed

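RNA from sorted cells was amplified (Ovation V2), made into TruSeq libraries and sequenced as paired 100-base reads, which an in-house pipeline mapped to mm9. The submitters' processing notes name Bowtie 0.12.2 and HTSeq. The authors deposited FPKM, not quantile normalized, for 30025 genes. Of these, 29279 (97.52%) matched the GENCODE annotation of mm9 by identifier. Fragments were recovered from the steps of the FPKM times exon length, and 98.4% to 98.91% of low values per library were whole within 0.05. Amplified fragments are not independent molecules, so depth covers counting error only.

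Genes that reached 1 FPKM in 4 or more libraries were transformed as log2(FPKM + 1) and quantile normalized. limma 3.58.1 (R 4.3.3) was fitted to 29 libraries with 6 group means and 11 contrasts, and its two-sided p-values were adjusted by Benjamini-Hochberg over 15409 genes and called under 0.05. Sums and medians over genes are descriptions without a test. The script was tested on simulated data. Alternatives covered the pseudocount, filter, normalization, prior, voom on 15139 genes, the groups fitted, the mouse as a block and leaving out each mouse. Libraries of a genotype with the same replicate number come from 1 mouse, per the labels. Deviations from group means correlated with a median of 0.0786 over 28 pairs from the same mouse and -0.01 over 322 other pairs. Python 3.11.15, numpy 2.4.6, pandas 2.3.3 and matplotlib 3.10.9 were used for tables, sequences and figures.

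Genes are named if they are histone genes with an adjusted p under 0.05, the 2 most abundant of each class, the 3 with the smallest unadjusted p between genotypes per population, Hist3 and Hist4 members, or testis members. Also named are genes of the lists of variant histones and of histone mRNA factors, most genes of the chaperone, replication, mitosis and cell type lists past the threshold, and Slamf1, Mll5 and Orc5. S100a8, Ctsg, Prtn3, Hist2h4 in the comparison of populations, Hist1h2bb in 5A3+/del cells and the genes at the extremes of spread were chosen after their values were seen. The members and the lists were chosen with earlier results of these data known.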

Additional observations from a re-analysis of the deposited data

Results flagged for a closer look

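Summed levels and the levels of named genes were examined in each group for a library far from the rest, by the gap to its nearest neighbor over the range of the group. Of 162 tests over 27 quantities, 22 stood out, where chance gives about 1 in 20 groups if values are normally distributed. The values were FPKM without a log scale, each library that stood out was high, and many of these quantities share genes. The count can therefore not show an excess over chance.

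WT CD150lo replicate 1 was high in most of them. Its summed histone level was 2245 FPKM, and 1101 FPKM without Hist1h4d. The H2B sum was 531 FPKM, the H4 sum 1369 FPKM and the H4 sum without Hist1h4d 226 FPKM. The Hist1 cluster summed to 2111 FPKM and, without Hist1h4d, to 967 FPKM. Single genes in that library were Hist1h4d at 1144 FPKM, Hist1h2bl at 93.2 FPKM, Hist1h2bm at 57.1 FPKM, Hist4h4, the only Hist4 gene, at 30.4 FPKM and Hist3h2bb-ps at 2.88 FPKM.

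In WT CD150neg MPP, replicate 2 was high in the summed level (1555 FPKM), the H4 sum (1013 FPKM), the Hist1 sum (1503 FPKM) and Hist1h4d (924 FPKM). Replicate 1 was high without Hist1h4d, at 677 FPKM for all histone genes and 632 FPKM for Hist1, in a group whose other libraries lay within 624 to 633 FPKM and 571 to 586 FPKM. In 5A3+/del CD150hi HSC, replicate 1 was high in the H4 sum without Hist1h4d (138 FPKM) and in Hist4h4 (18.3 FPKM).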

How the results depend on the processing

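In the genotype comparison of CD150hi HSC the count of 1 histone gene became 0 with a pseudocount of 0.1, with median scaling, with voom and with the groups of the contrast alone. It was 0 to 1 when each mouse was left out in turn, 0 without WT mouse 2 or 4 or any of the 5A3+/del mice, and 1 without WT mouse 5, where the gene was Hist1h2bm. In CD150lo HSC the count of 0 became 1 without WT mouse 5 (range 0 to 1). From WT CD150hi HSC to CD150neg MPP the count of 3 became 1 without a filter on low values and 2 with a pseudocount of 0.1, without quantile normalization, with median scaling, with voom and with the groups of the contrast alone. It ranged from 0 to 3 with a mouse left out. In 5A3+/del mice the count of 0 from CD150hi to CD150neg cells became 1 without WT mouse 1 (range 0 to 1).

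With the mouse as a random replicate block the counts were 1, 0 and 0 between genotypes in CD150hi, CD150lo and CD150neg cells, 3 from WT CD150hi to CD150neg cells and 0 in the other paired comparisons and interactions. With a fixed replicate block, which fits contrasts within mice, they were 2 from WT CD150hi to CD150neg cells and 0 in the others. In an alternative chosen after seeing the data, WT CD150lo replicate 1 and 5A3+/del CD150hi replicate 1 were left out. The counts were then 0 between genotypes in CD150hi HSC, 5 from WT CD150hi to CD150neg cells and 1 from 5A3+/del CD150hi to CD150neg cells. The cause of these changes was not tested.

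Counts of 0 in the other 7 comparisons stayed at 0 in every alternative run. The called genes kept their direction in every alternative. Medians over histone genes and summed levels moved by less than 1 SD between replicates (0.316 for the median). Each median over all histone genes was itself smaller in size than this SD, the largest being 0.28. Staying within the SD therefore says nothing on whether a median kept its size or direction. The median between genotypes in CD150lo HSC, -0.03, turned positive with WT CD150lo replicate 1 and 5A3+/del CD150hi replicate 1 left out. Genes near 1 FPKM rest on few fragments.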
